A study of Mus musculus with 10 samples.

Results

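A set of genes, some of them known from T cells, was described here in mouse T cells grown against B lymphoma cells that carry proteins of Epstein-Barr virus (EBV). *Ccn3*, *Csn2*, *Fgl2*, *Sval1*, *Esm1* and *Lcn4* code for secreted proteins, and *Scin* codes for an actin-binding protein of the cytosol. The 7 genes, of 18193 measured, were chosen by their log2 values on these same 10 arrays, for very large differences between cultured and naive cells or between CD4 and CD8 cells, so their levels and differences are given as a description and carry no test. They are read by 11 of the 45037 probe sets (short groups of probes against one transcript) of an Affymetrix whole-genome mouse expression array.

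Each of 5 groups had 2 arrays. CD4 TEM (effector-memory) cells and CD4 memory cells were taken on day 25 from cultures begun with naive CD4 T cells. CD8 TEM cells were taken on day 25 from cultures begun with naive CD8 T cells. The naive CD4 and naive CD8 cells themselves are the reference groups. The titles mark the CD4 memory cells CM, read here as central memory, and the TEM cells EF. In the paper's cytometry, effector-memory cells were CD62L- CD44+ and central-memory cells CD62L+ CD44+. All naive cells were sorted from spleens of wild-type C57BL/6 mice as TCRβ+ CD62L+ CD44- cells. The cultured cells had been restimulated weekly with γ-irradiated lymphoma cells in low-dose IL-2. These stimulators descend from GCB-LMP1/2 mice (Cγ1-Cre, Rosa26-LMP1flSTOP, Rosa26-LMP2AflSTOP), in which a Cre active in germinal center B cells switches on the EBV proteins LMP1 and LMP2A, and had passed through Rag2-/- or Rag2-/- γC-/- hosts. The naive cells received no lymphoma cells, no IL-2 and no time in culture, and these differences cannot be told apart. Whether the 2 arrays of a group came from separate mice or cultures is not given, so every spread and p-value here measures only the spread between arrays, which may be technical. In such bulk samples, fewer cells of a type and less RNA per cell cannot be told apart.

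As background, proteins that leave the cell act at a distance or shape the matrix around it. CCN3 is a matricellular protein, one that sits in the matrix and signals through integrins and Notch, and mouse regulatory T cells can secrete it. Csn2 codes for β-casein, a main milk protein, whose transcription in the mammary gland is driven by prolactin through the transcription factor STAT5, the same factor that IL-2 activates in T cells. FGL2, or fibroleukin, exists as a membrane-bound prothrombinase of macrophages and endothelium and as a soluble form, made by T cells, that dampens immune responses through an inhibitory Fc receptor. Endocan, the product of *Esm1*, is a small dermatan sulfate proteoglycan of endothelial cells that binds the integrin LFA-1. Scinderin, the product of *Scin*, severs actin filaments when calcium rises and is tied to exocytosis. Lipocalin 4 belongs to the secreted carriers of small lipophilic molecules and is known from the nasal glands of mice. *Sval1* codes for a relative of seminal vesicle antigen.

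The start regions of 4 of these genes are shown because their arrays fall into contrasting patterns: *Csn2* and *Fgl2* were high in all 3 cultured groups, *Sval1* and *Esm1* only in CD8 TEM cells among the 5 groups. The sequences are those of RefSeq on GRCm38.p6, 300 bases each, from 250 bases before the start of the gene to 50 bases into it, written 5′ to 3′ on the strand of the gene. For *Csn2* the start used lies a few bases inside the gene span given below, and its motif distances count from the start used. Capitals mark every match to 5 motifs searched on both strands: STAT5 (GAS) TTCNNNGAA, AP-1 TGAGTCA, T-box AGGTGTGA, RUNX TGTGGT and AHR TNGCGTG.
Csn2, chr5:87699376-87699675, minus strand: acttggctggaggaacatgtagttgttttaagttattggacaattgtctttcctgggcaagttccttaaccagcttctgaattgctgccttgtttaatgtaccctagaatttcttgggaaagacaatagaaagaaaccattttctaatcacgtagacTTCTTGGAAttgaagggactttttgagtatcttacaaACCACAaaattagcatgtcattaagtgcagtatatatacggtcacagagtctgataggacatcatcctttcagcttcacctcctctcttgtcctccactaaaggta
Fgl2, chr5:21372423-21372722, plus strand: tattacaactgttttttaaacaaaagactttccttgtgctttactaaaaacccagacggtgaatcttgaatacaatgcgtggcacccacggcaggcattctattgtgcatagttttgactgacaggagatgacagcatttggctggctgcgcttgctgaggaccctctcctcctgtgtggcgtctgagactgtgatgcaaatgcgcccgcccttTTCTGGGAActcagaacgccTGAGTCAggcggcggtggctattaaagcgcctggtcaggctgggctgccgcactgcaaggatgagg
Sval1, chr6:41951378-41951677, plus strand: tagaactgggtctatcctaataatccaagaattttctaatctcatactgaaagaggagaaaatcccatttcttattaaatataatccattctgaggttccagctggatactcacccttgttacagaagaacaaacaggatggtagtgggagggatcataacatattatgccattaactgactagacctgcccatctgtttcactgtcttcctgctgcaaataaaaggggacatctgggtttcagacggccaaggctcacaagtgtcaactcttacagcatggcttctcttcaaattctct
Esm1, chr13:113209409-113209708, plus strand: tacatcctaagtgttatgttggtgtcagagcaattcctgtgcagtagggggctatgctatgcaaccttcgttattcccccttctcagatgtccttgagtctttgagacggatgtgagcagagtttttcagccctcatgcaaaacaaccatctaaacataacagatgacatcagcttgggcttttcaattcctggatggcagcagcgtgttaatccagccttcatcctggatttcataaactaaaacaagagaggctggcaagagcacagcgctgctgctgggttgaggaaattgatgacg

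The *Csn2* region held a GAS match, TTCTTGGAA, that begins 93 bases before the start, and a RUNX match on the opposite strand, ACCACA, that begins 56 bases before it. In the *Fgl2* region a GAS match, TTCTGGGAA, lay 36 bases and an AP-1 match, TGAGTCA, 16 bases before the start. None of the 5 motifs was found in the *Sval1* and *Esm1* windows, nor in those of *Scin* and *Lcn4*, the other 2 of the 6 genes matched in the promoter table. *Scin*, which was also high in all cultured groups, thus held no match, and *Ccn3* had no promoter entry, so matches did not divide the patterns. Of all 32851 promoters of this length, 8.3% held the GAS motif, 5.2% the AP-1, 1.28% the T-box, 16.8% the RUNX and 5.07% the AHR motif. A match describes these letters alone, and whether a factor binds there was not tested. The *Csn2* window was poor in G and C (38.7%), as was that of *Sval1* (40.7%), while *Esm1* (46.3%), *Lcn4* (48.0%), *Fgl2* (51.7%) and *Scin* (52.0%) came closer to the median of all promoters, 52.7%.

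The arrays of the 7 genes fell into 3 patterns. Of the 7, 4 (*Ccn3*, *Csn2*, *Scin* and *Fgl2*) were at least 3 log2 units (8-fold) higher, with no overlap between arrays, in CD4 TEM cells than in naive CD4 cells, and none was lower by as much; across all genes, 3.79% differed by this much in either direction. In CD8 TEM cells against naive CD8 cells the count was 6 higher (the same 4, *Sval1* and *Esm1*) and 1 lower (*Lcn4*), where 5.01% of all genes did so, and in CD4 memory cells against naive CD4 cells it was 4 higher and none lower, where 2.78% of all genes did so. These counts follow from how the genes were picked. Values are log2 RMA values (robust multi-array averages of the probes). The median of an array lay between 4.65 and 4.75 and the lowest value in the table was 1.68, so a value of 2 to 3 lies at the dim end of the scale, and a fold against it depends on how the dimmest probe sets were modelled.

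**Figure D1:**
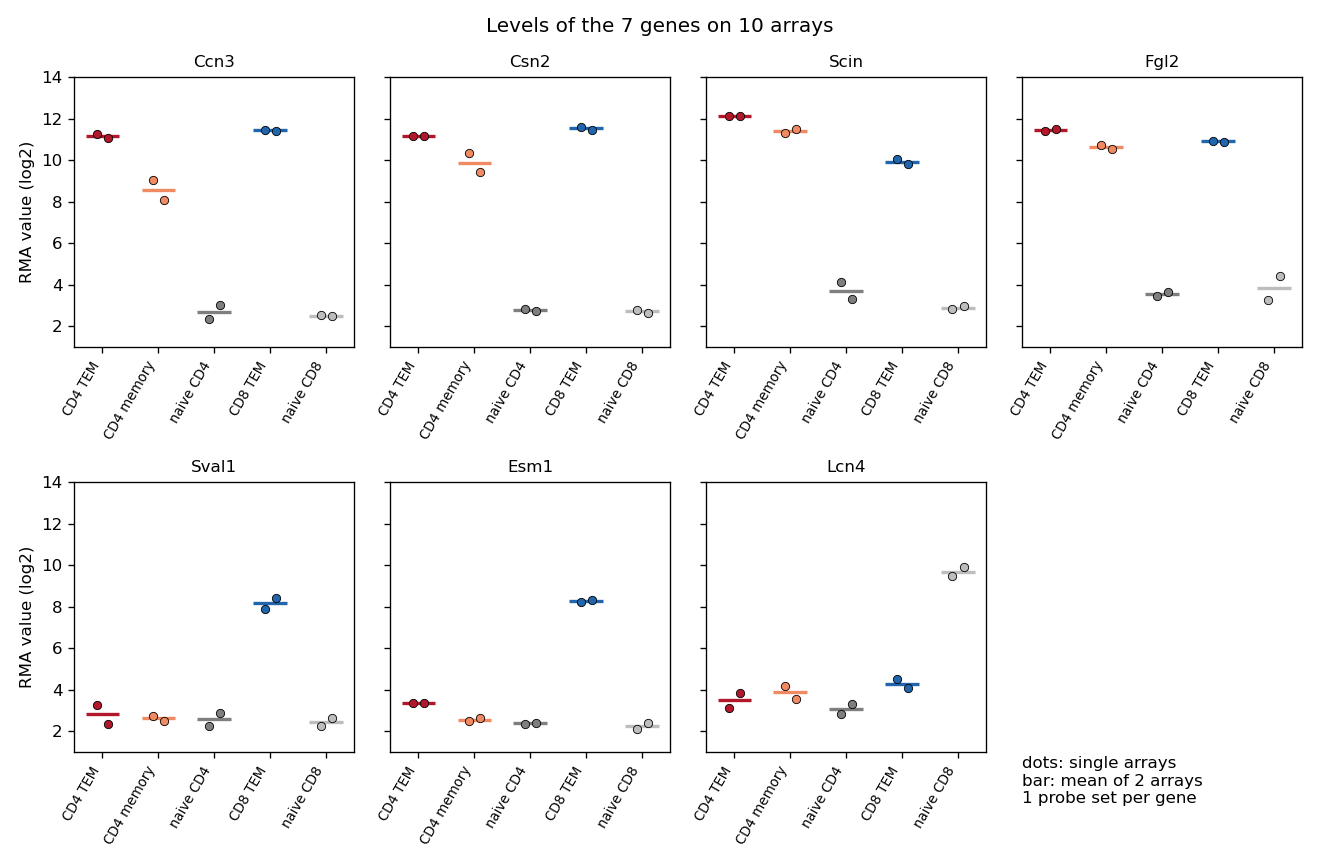
Log2 RMA value (vertical axis) of the 7 genes on each of the 10 arrays, 1 probe set per gene, by group (horizontal axis); dots are arrays and bars are means of 2. *Ccn3*, *Csn2*, *Scin* and *Fgl2* lie above 8 on every cultured array and below 4.5 on every naive array, *Sval1* and *Esm1* lie above 7 only in CD8 TEM cells, and the *Lcn4* probe set lies above 9 only in naive CD8 cells.

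*Ccn3* had 11.27 and 11.07 in CD4 TEM cells, 9.03 and 8.11 in CD4 memory cells and 2.38 and 3.01 in naive CD4 cells. In CD8 TEM cells it had 11.45 and 11.42, against 2.53 and 2.5 in naive CD8 cells. No cultured array came near a naive one, and the CD4 memory arrays lay between the CD4 TEM and naive CD4 arrays. The group means were 8.48 log2 units apart in CD4 TEM cells against naive CD4 cells (356-fold), 8.92 in CD8 TEM cells against naive CD8 cells (486-fold) and 5.87 in CD4 memory cells against naive CD4 cells (58.7-fold). The CD4 TEM and CD4 memory comparisons share their naive CD4 arrays, for this gene and all others. Among the rises of all 18193 genes, *Ccn3* ranked 8 in CD4 TEM cells and 2 in CD8 TEM cells.

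Against CD4 memory cells, CD4 TEM cells had 2.60 log2 units (6.07-fold) more *Ccn3*, the widest gap among the 7 genes in that comparison. No gene of the 7 differed there by 3 log2 units, as 0.594% of all genes did; 5 were higher in CD4 TEM cells with the arrays apart, none was lower so, and *Lcn4* and *Sval1* overlapped. With 2 arrays against 2 such separation is common: of all genes, 22.7% were apart and higher and 26.4% apart and lower. The difference of CD4 TEM minus CD8 TEM cells was -0.27, a gap wider than the spread of the arrays (the sum of both SDs was 0.16). Naive CD4 and naive CD8 cells, 0.18 apart, did not differ beyond their spread (0.47). How many of all genes pass this limit was not counted, so here and below it describes the arrays and is no test. A 2nd probe set of *Ccn3* gave the same order, with means ± SD of 10.81 ± 0.15 in CD4 TEM, 8.25 ± 0.55 in CD4 memory, 2.51 ± 0.06 in naive CD4, 11.09 ± 0.0 in CD8 TEM and 2.25 ± 0.31 in naive CD8 cells (n = 2 each). The probe set used carries the mark of the array's maker for probes that may also bind other transcripts.

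The relatives of *Ccn3* stayed low. Of the 5 other CCN genes, which code for matricellular proteins of the same build, none was called higher in any comparison. A call here is a Benjamini-Hochberg adjusted p under 0.05 over all 18193 genes in limma, and 16.4% of all genes were called higher and 10.1% lower in CD4 TEM against naive CD4 cells. The one call was *Ccn1*, lower by 0.70 ± 0.17 (SE) log2 units in CD4 TEM cells (3.37 ± 0.00, against 4.07 ± 0.03 in naive CD4 cells; SD, n = 2; limma adjusted p = 0.0188), and it was lost when all its probe sets were averaged and when any 1 of the 4 arrays of those groups was left out (adjusted p up to 0.0981 over all alternatives). The median change of the 5 was -0.17 in CD4 TEM and 0.07 in CD8 TEM cells, where all genes had medians of 0.02 and 0.06.

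Among 8 receptors and partners of CCN proteins, 4 were called higher and 1 lower in CD4 TEM cells, 3 and 2 in CD8 TEM cells, where 20.9% of all genes were called higher and 17.2% lower, and 4 and 1 in CD4 memory cells, where 13.5% and 9.78% were. *Itga5*, a chain of the fibronectin receptor, rose by 2.60 ± 0.28 in CD4 TEM cells (limma adjusted p = 0.000273) and changed by 0.50 ± 0.28 in CD8 TEM cells (adjusted p = 0.213), but the CD4 call was lost with other probe sets, where the change was as low as 0.67. *Itga6*, a laminin receptor chain, fell in all 3 cultures, with changes of -1.76 in CD4 TEM, -1.03 in CD8 TEM and -1.62 in CD4 memory cells (adjusted p up to 0.00193). *Notch1* fell by 1.84 ± 0.15 in CD8 TEM cells (adjusted p = 3.25e-05) and had a change of -0.17 in CD4 TEM cells. *Itgb3*, the β3 integrin chain, was 1.66 higher in CD4 TEM than in CD8 TEM cells (limma adjusted p = 0.00415). That call was lost, at 0.085, when all its probe sets were averaged. The naive cells already differed in *Itgb3*, with means of 11.59 in naive CD4 and 8.65 in naive CD8 cells. Its changes from these were -0.63 in CD4 TEM and 0.65 in CD8 TEM cells.

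*Csn2* was as wide. It had 11.17 and 11.18 in CD4 TEM cells, 10.34 and 9.44 in CD4 memory cells and 2.83 and 2.72 in naive CD4 cells, and 11.62 and 11.46 in CD8 TEM cells, against 2.79 and 2.67 in naive CD8 cells. All 6 cultured arrays were far above all 4 naive arrays. The difference was 8.40 log2 units (337-fold, rank 10 of all rises) in CD4 TEM, 8.81 (450-fold, rank 5) in CD8 TEM and 7.12 (139-fold, rank 24) in CD4 memory cells. CD4 TEM cells were 1.28 above CD4 memory cells, and their difference from CD8 TEM cells was -0.37, both beyond the spread of the arrays, and the 2 naive groups, 0.05 apart, were not separated. A 2nd probe set of *Csn2* read 9.56 ± 0.09 in CD4 TEM, 7.32 ± 1.13 in CD4 memory, 2.44 ± 0.55 in naive CD4, 10.86 ± 0.15 in CD8 TEM and 2.42 ± 0.05 in naive CD8 cells (SD, n = 2 each), the same order with a wider gap between CD4 TEM and CD8 TEM cells.

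*Csn2* lies on GRCm38.p6 at chr5:87692619-87699429, between other casein genes, and those did not move with it. Its neighbours *Csn1s1*, 10 kb away, *Csn1s2a* and *Csn1s2b*, genes of the calcium-sensitive caseins, had group means from 2.46 to 4.02 and no call in any comparison. Of 8 milk protein genes, 1 was called higher in each culture and none lower. That gene was *Csn3*, which codes for κ-casein, the protein that keeps casein micelles in solution. *Csn3* averaged 5.99 ± 0.19 in CD4 TEM and 6.11 ± 0.40 in CD4 memory cells, against 3.16 ± 0.09 in naive CD4 cells, and 7.27 ± 0.07 in CD8 TEM cells, against 3.01 ± 0.01 in naive CD8 cells (SD, n = 2 each). Its rise was 2.84 ± 0.20 in CD4 TEM, 4.26 ± 0.20 in CD8 TEM and 2.95 ± 0.20 in CD4 memory cells (SE; limma adjusted p = 2.69e-05, 2.63e-06 and 3.03e-05), and the difference of CD4 TEM minus CD8 TEM cells was -1.27 (adjusted p = 0.0126; lost without CD4 TEM replicate 2 or either CD8 TEM array, adjusted p up to 0.104). Under the alternatives the rise of *Csn3* was as low as 1.39 in CD4 TEM, 2.24 in CD8 TEM and 1.47 in CD4 memory cells. Whey acidic protein (*Wap*), α-lactalbumin (*Lalba*) and *Glycam1* averaged between 2.87 and 3.99 in every group, with no call.

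Genes of the IL-2, prolactin and STAT5 route were called in both directions. *Prlr*, the gene of the prolactin receptor, and *Il2rg*, that of an IL-2 receptor chain, were listed but not measured. Of 6 measured genes of receptors, kinases and factors, 3 were called higher and 1 lower in CD4 TEM cells, 3 and 3 in CD8 TEM cells, and 4 and 1 in CD4 memory cells. The lower calls included the STAT5 genes themselves, *Stat5b* in CD4 TEM cells (-0.44, limma adjusted p = 0.0481), both *Stat5a* (-0.66, adjusted p = 0.0104) and *Stat5b* (-0.49, adjusted p = 0.0216) in CD8 TEM cells and *Stat5a* in CD4 memory cells (-0.70, adjusted p = 0.0143). None of these 4 calls held when all probe sets were averaged (adjusted p up to 0.76 over all alternatives), which gave *Stat5b* 0.36 in CD4 TEM and *Stat5a* 0.20 in CD8 TEM cells. Each was also lost when single arrays were left out, *Stat5b* in CD4 TEM cells without any 1 CD4 TEM, naive CD4 or CD8 TEM array, *Stat5b* in CD8 TEM cells without either CD8 TEM array or naive CD8 replicate 1, *Stat5a* in CD8 TEM cells without CD8 TEM replicate 1, and *Stat5a* in CD4 memory cells without CD4 memory replicate 1 or either naive CD4 array. The IL-2 receptor chain *Il2ra* rose by 5.07 ± 0.25 in CD4 TEM and by 7.84 ± 0.25 in CD8 TEM cells (limma adjusted p = 4.11e-06 and 4.52e-07), and *Il2rb* by 4.91 ± 0.15 and 2.15 ± 0.15 (adjusted p = 4.97e-07 and 1.47e-05). The kinase gene *Jak3*, which serves the IL-2 receptor, rose by 2.41 in CD4 TEM and 1.10 in CD8 TEM cells, while *Jak2*, which serves the prolactin receptor, changed by 0.08 in CD4 TEM cells (adjusted p = 0.73) and fell by 0.91 in CD8 TEM cells (adjusted p = 0.000676). Among 11 target genes of STAT5 known in T cells, 6 were called higher and none lower in CD4 TEM, 7 and 2 in CD8 TEM, and 6 and 1 in CD4 memory cells. *Socs2*, a feedback inhibitor of cytokine signals, rose by 5.57, 6.81 and 5.75 in CD4 TEM, CD8 TEM and CD4 memory cells (adjusted p up to 6.26e-06), the cytokine gene *Lif* by 5.32, 5.20 and 5.42, and *Cish*, another feedback inhibitor, by 3.31, 4.32 and 2.92. Under the alternatives the rise of *Socs2* was as low as 3.65, 3.14 and 4.11, in the same order of groups. That of *Lif* was as low as 2.65, 2.79 and 2.93. *Socs3* fell by 3.20 ± 0.26 in CD8 TEM cells (adjusted p = 3.86e-05) and had a change of -0.71 ± 0.26 in CD4 TEM cells (adjusted p = 0.086).

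Markers of other cells moved beside the 4 genes that were high in all cultures. Of 9 measured B cell markers, 4 were called higher in CD4 TEM, 4 in CD8 TEM and 6 in CD4 memory cells, among them *Ebf1*, *Cd79b*, *Vpreb3* and *Blnk*, and their summed linear signal ran from 2064 to 2401 in CD4 TEM, 2377 to 3443 in CD4 memory, 145 in both naive CD4, 2669 to 2993 in CD8 TEM and 367 to 841 in naive CD8 arrays. The lymphoma cells added to these cultures are B cells. *Pax5* averaged 4.01 in CD4 TEM, 4.20 in CD4 memory, 3.62 in naive CD4, 3.58 in CD8 TEM and 3.77 in naive CD8 cells, dim in all 5 groups though called higher in CD4 memory cells (limma adjusted p = 0.041). Of 6 epithelial markers 3 (*Cdh1*, *Krt8* and *Krt18*) were called higher in CD4 TEM and in CD8 TEM cells and 1 (*Cdh1*) in CD4 memory cells, with sums of 1737 to 1878, 1092 to 1142 and 918 to 1007, against 108 to 113 in naive CD4 and 143 to 147 in naive CD8 arrays, while *Krt5*, *Krt14* and *Epcam* were not called against naive cells. Of 7 myeloid markers, 2 were called higher in CD4 TEM, 1 in CD8 TEM and 2 in CD4 memory cells, with sums of 206 to 268, 209 to 256 and 234 to 510, against 103 to 133 in naive CD4 and 107 to 607 in naive CD8 arrays. Of 6 fibroblast markers 1 was called higher, in CD8 TEM cells, and of 3 natural killer cell markers none. The part of these cells or genes in the levels of *Ccn3*, *Csn2*, *Scin* and *Fgl2* was not tested. Of 7 T cell markers, *Cd3d*, *Cd3e* and *Cd3g* averaged 11.96 or more in every group, and *Cd8b1* averaged 5.09 in CD4 TEM and 10.99 in CD8 TEM cells. *Cd2* fell by 1.04 in CD4 TEM and by 0.85 in CD8 TEM cells (limma adjusted p = 0.00378 and 0.00642). *Cd8a* rose by 2.85 in CD4 TEM cells (7.92, against 5.07 in naive CD4 cells; adjusted p = 0.00126) and *Cd4* by 2.50 in CD8 TEM cells (6.70, against 4.20 in naive CD8 cells; adjusted p = 1.37e-05), and no T cell marker was called in CD4 memory cells.

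*Scin* had the highest CD4 levels relative to CD8 among the 7. It had 12.12 and 12.15 in CD4 TEM, 11.31 and 11.53 in CD4 memory and 4.13 and 3.30 in naive CD4 cells, and 10.04 and 9.80 in CD8 TEM cells, against 2.84 and 2.97 in naive CD8 cells. No 2 groups overlapped, and each step in the order CD4 TEM, CD4 memory, CD8 TEM, naive CD4, naive CD8 was wider than the spread of the arrays. The difference was 8.42 log2 units (342-fold, rank 9) in CD4 TEM, 7.01 (129-fold, rank 36) in CD8 TEM and 7.70 (208-fold, rank 14) in CD4 memory cells. CD4 TEM cells lay 2.22 log2 units (4.65-fold) above CD8 TEM cells, rank 44 of all genes in that direction. Across all genes, 2.19% were called higher and 3.53% lower in CD4 TEM than in CD8 TEM cells.

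Of the 7 other gelsolin-family genes, which code for proteins that cut or cap actin filaments, 3 rose with *Scin* in each culture. They were *Capg*, the capping protein of macrophages, *Gsn*, gelsolin itself, and *Vill*, a villin-like gene. *Capg* rose by 3.18 ± 0.26 in CD4 TEM, 4.78 ± 0.26 in CD8 TEM and 2.69 ± 0.26 in CD4 memory cells (SE; limma adjusted p = 6.05e-05, 5.36e-06 and 0.000199), *Gsn* by 1.02, 2.04 and 1.09 (adjusted p up to 0.00233), and *Vill* by 2.36, 2.14 and 1.35 (adjusted p up to 0.00271). *Vill* was also 1.01 higher in CD4 TEM than in CD4 memory cells (adjusted p = 0.0345), a call lost when any array of the TEM or memory groups was left out (up to 0.165), where 3.89% of all genes were called higher and 1.64% lower. *Svil*, supervillin, fell by 0.89 ± 0.19 in CD4 TEM cells (adjusted p = 0.00922; lost, up to 0.26, without CD4 TEM replicate 1, without naive CD4 replicate 1 or with other probe sets) and by 2.75 ± 0.19 in CD8 TEM cells (adjusted p = 1.53e-05). *Avil*, advillin, fell in CD8 TEM cells as well (adjusted p = 0.0286; lost without either CD8 TEM array or naive CD8 replicate 1, up to 0.157). *Vil1*, the villin of intestinal brush borders, and *Flii* had no call. The changes of *Scin* ran past those of all 7 relatives in both comparisons, as the plot of each gene with its family shows.

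**Figure D2:**
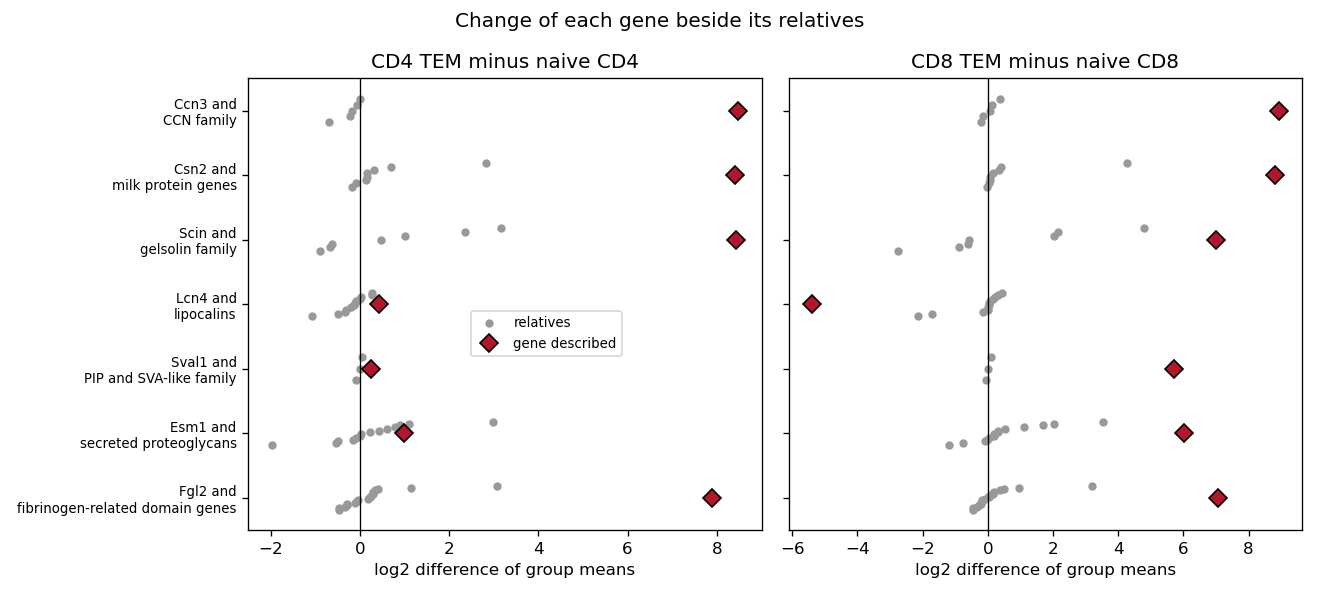
Log2 difference of group means (horizontal axis) of each gene (red diamond) and of its listed relatives (gray dots) in CD4 TEM minus naive CD4 cells (left) and CD8 TEM minus naive CD8 cells (right); a row is a gene with its family. *Ccn3* at 8.48 and 8.92 stands far right of 5 relatives near 0, and *Csn2* at 8.40 and 8.81 stands right of *Csn3*, the milk gene at 2.84 and 4.26.

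*Fgl2* had 11.40 and 11.53 in CD4 TEM, 10.72 and 10.56 in CD4 memory and 3.48 and 3.65 in naive CD4 cells. In CD8 TEM cells it had 10.91 and 10.90, against 3.27 and 4.42 in naive CD8 cells, the widest pair of arrays for this gene. The lowest cultured array lay far above the highest naive array. The difference was 7.90 (239-fold, rank 19) in CD4 TEM, 7.06 (134-fold, rank 33) in CD8 TEM and 7.07 (135-fold, rank 27) in CD4 memory cells. CD4 TEM cells were 0.56 (1.47-fold) above CD8 TEM and 0.83 above CD4 memory cells, both beyond the spread of the arrays, while the naive groups were not separated.

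The 2nd probe set of *Fgl2* was dimmer and gave smaller gaps, with 6.30 and 6.78 in CD4 TEM, 4.79 and 5.20 in CD4 memory, 2.67 and 3.50 in naive CD4, 6.67 and 6.17 in CD8 TEM and 2.51 and 2.84 in naive CD8 cells. It kept all cultured arrays above all naive arrays, but CD4 TEM and CD8 TEM cells overlapped on it. With all probe sets averaged, the difference of *Fgl2* was 5.68 in CD4 TEM, 5.40 in CD8 TEM and 4.49 in CD4 memory cells.

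Of 18 measured genes with a fibrinogen-related domain, 1 was called higher in each culture. It was *Tnc*, tenascin C, a matrix glycoprotein of wounds, which rose by 3.07 ± 0.62 in CD4 TEM and 3.18 ± 0.62 in CD8 TEM cells (SE; limma adjusted p = 0.00744 and 0.00399) and by 2.35 ± 0.62 in CD4 memory cells (adjusted p = 0.0281). Both CD4 calls were lost without naive CD4 replicate 1 (adjusted p up to 0.0536 and 0.141), the memory call also without naive CD4 replicate 2. *Angptl1*, an angiopoietin-like gene, fell by 0.81 in CD4 memory cells (adjusted p = 0.0483), a call lost without any 1 of 8 arrays (up to 0.246). *Fgl1*, the closest relative and itself a ligand of a T cell checkpoint receptor, averaged 4.80 in CD4 TEM, 4.72 in CD4 memory, 4.55 in naive CD4, 4.85 in CD8 TEM and 4.46 in naive CD8 cells, with no call. The Fc receptors *Fcgr2b* and *Fcgr3*, which bind soluble FGL2, and its substrate prothrombin (*F2*) had no call either, and *Fcgr2b*, the inhibitory receptor, averaged 3.38 to 3.80.

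**Figure D3:**
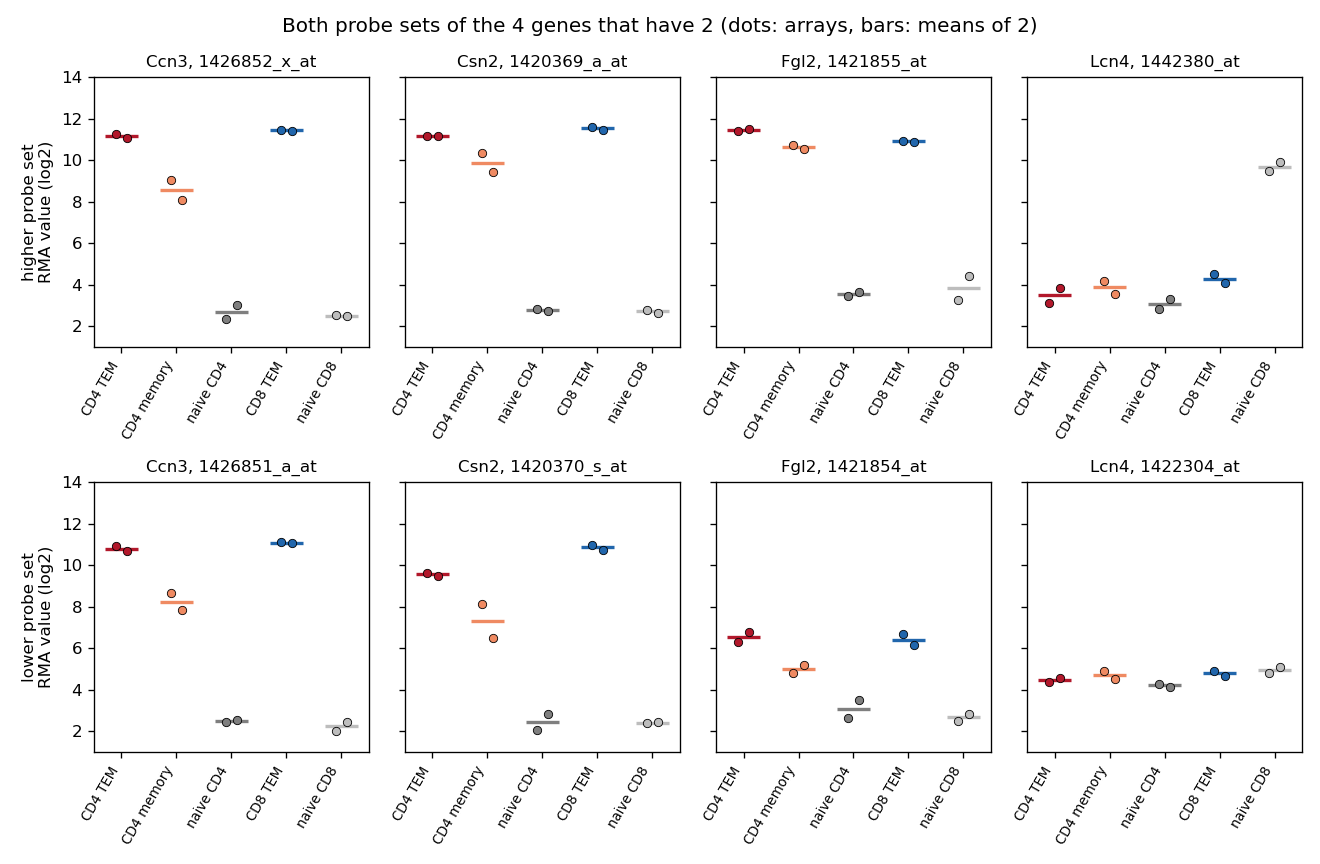
Log2 RMA value (vertical axis) on each array by group (horizontal axis) for the 4 genes with 2 probe sets. The one brighter on average over the 10 arrays is in the upper row and the other in the lower. Dots are arrays and bars are means of 2. Both probe sets of *Ccn3*, *Csn2* and *Fgl2* separate cultured from naive arrays, whereas the 2 of *Lcn4* differ, one reaching 9.47 and 9.91 in naive CD8 cells and the other 4.80 and 5.09.

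*Sval1* and *Esm1* were bright in CD8 TEM cells alone. *Sval1* had 7.89 and 8.43 in CD8 TEM cells, against 2.25 and 2.64 in naive CD8 cells, and 3.29 and 2.36 in CD4 TEM, 2.75 and 2.5 in CD4 memory and 2.26 and 2.89 in naive CD4 cells. The 2 CD8 TEM arrays stood far above the other 8, which overlapped each other. The difference was 5.72 (52.6-fold, rank 119) in CD8 TEM against naive CD8 cells. The difference of CD4 TEM minus CD8 TEM cells was -5.34 (40.4-fold lower), rank 2 of 18193 genes in that direction, and CD4 TEM cells were 0.25 above naive CD4 cells, within the spread. Of the 7 genes, 2 (*Sval1* and *Esm1*) were at least 3 log2 units lower in CD4 TEM than in CD8 TEM cells and none higher by as much, where 0.231% of all genes differed so in either direction.

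*Sval1* lies on GRCm38.p6 at chr6:41951628-41956098 beside its relatives *Sva*, *Sval2* and *Pip*. These 3 code for seminal vesicle antigen, a like protein and prolactin-induced protein, a secreted factor of exocrine glands. Their group means lay between 2.04 and 2.99 in all 5 groups, and none was called in any comparison. On the far side *Gstk1*, an enzyme of glutathione conjugation 289.8 kb away, rose by 1.43 ± 0.19 in CD8 TEM cells (SE; limma adjusted p = 0.000541).

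*Esm1* had 8.22 and 8.32 in CD8 TEM cells, against 2.12 and 2.40 in naive CD8 cells, and 3.38 and 3.37 in CD4 TEM, 2.48 and 2.66 in CD4 memory and 2.37 and 2.40 in naive CD4 cells. The CD8 TEM arrays were far above all others, and the CD4 TEM arrays, though dim, lay above the CD4 memory and naive CD4 arrays with no overlap. The difference was 6.01 (64.5-fold, rank 94) in CD8 TEM against naive CD8 cells and 0.99 (1.99-fold) in CD4 TEM against naive CD4 cells. The difference of CD4 TEM minus CD8 TEM cells was -4.89 (29.7-fold lower), rank 4 in that direction. CD4 memory cells were 0.18 above naive CD4 cells, a step barely wider than the sum of SDs (0.15).

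Of 6 markers of endothelium, where *Esm1* is usually found, 5 averaged below 6 in every group, and *Egfl7*, a secreted angiogenic factor, averaged 6.57 in CD8 TEM and 5.61 in naive CD8 cells, 6.36 in CD4 TEM, 6.57 in CD4 memory and 6.27 in naive CD4 cells. None of the 6 was called in CD4 TEM or CD4 memory cells and 1 in CD8 TEM cells, *Egfl7*, higher by 0.96 ± 0.25 (SE; limma adjusted p = 0.0172). *Cdh5* averaged 3.27 and *Kdr* 4.42 in CD8 TEM cells, against 2.77 and 4.20 in naive CD8 cells, and *Tek* and *Emcn* were below 3.5 in every group. The summed signal of the 6 was 148 to 160 in CD8 TEM and 100 to 106 in naive CD8 arrays. Of the partners of endocan, *Vegfa*, the growth factor that induces *Esm1* in endothelium, rose by 3.21 ± 0.36 in CD4 TEM and 2.67 ± 0.36 in CD8 TEM cells (adjusted p = 0.000378 and 0.00059). Under the alternatives the rise of *Vegfa* was as low as 1.84 and 1.77. *Icam1*, a ligand of LFA-1, rose by 2.90 and 1.17, and *Icam2* fell, with changes of -3.32 and -2.29 (adjusted p up to 0.00133 over the 4 values), while the LFA-1 chains *Itgal* and *Itgb2* had no call.

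Of 14 secreted proteoglycan genes, 4 were called higher and 2 lower in CD8 TEM cells, 1 and 1 in CD4 TEM cells, and 2 and 2 in CD4 memory cells. *Spock2*, a testican, rose by 1.68 ± 0.27 in CD8 TEM cells (SE; limma adjusted p = 0.00142), differed by -1.79 in CD4 TEM minus CD8 TEM cells (adjusted p = 0.0112; lost without CD4 TEM replicate 2 or either CD8 TEM array, up to 0.0964) and was 1.94 higher in CD4 TEM than in CD4 memory cells (adjusted p = 0.00595). *Lum*, lumican, rose by 2.03 ± 0.41 in CD8 TEM cells (adjusted p = 0.00461), with 2 CD8 TEM arrays that differed widely (SD 1.03). *Prg2*, a granule protein of eosinophils, rose by 2.99, 3.54 and 3.61 in CD4 TEM, CD8 TEM and CD4 memory cells (adjusted p up to 0.00041), and *Prg4*, lubricin, fell, with changes of -1.97, -0.77 and -1.36 (adjusted p up to 0.00546).

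*Lcn4* ran the other way and rests on 1 of its 2 probe sets. One, for which the annotation gives no transcript accession, was the brighter on average over the 10 arrays and so stands for the gene. That held through naive CD8 cells alone (mean 9.69, against 4.94 on the other probe set), and its mean was the lower in every other group. This probe set had 4.52 and 4.07 in CD8 TEM cells, against 9.47 and 9.91 in naive CD8 cells. It had 3.14 and 3.85 in CD4 TEM, 4.21 and 3.54 in CD4 memory and 2.83 and 3.30 in naive CD4 cells. It was high on the 2 naive CD8 arrays only, and the other 4 groups were not separated beyond the spread of neighbouring groups. The difference was -5.39 log2 units (42-fold lower, rank 21 of all falls) in CD8 TEM against naive CD8 cells, and naive CD8 cells lay 6.62 (98.7-fold) above naive CD4 cells. The other probe set, drawn from the *Lcn4* mRNA, varied far less. It had 4.90 and 4.69 in CD8 TEM, 4.80 and 5.09 in naive CD8, 4.37 and 4.59 in CD4 TEM, 4.93 and 4.54 in CD4 memory and 4.27 and 4.16 in naive CD4 cells. On it, naive CD8 cells lay 0.73 above naive CD4 cells with the arrays apart, and CD8 TEM and naive CD8 arrays overlapped. Between naive CD8 and naive CD4 cells the 2 probe sets disagreed by 5.89 log2 units, the widest disagreement of all 9010 genes with more than 1 probe set, whose median was 0.50. Which of the 2 reads *Lcn4* RNA cannot be told apart here, and with both averaged the difference in CD8 TEM cells was -2.77.

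Other lipocalin genes were mostly dim. Of 12 measured, 1 was called in any comparison: *Apom*, a carrier of sphingosine 1-phosphate, fell by 1.7 ± 0.26 in CD8 TEM cells (4.6 ± 0.17, against 6.30 ± 0.23 in naive CD8 cells; SD, n = 2; limma adjusted p = 0.00105). *Lcn2*, the iron-scavenging lipocalin of neutrophils, averaged 2.84 in CD8 TEM and 4.98 in naive CD8 cells, 3.74 in CD4 TEM and 4.81 in naive CD4 cells, with no call. Myeloid marker sums differed between the 2 naive CD8 arrays, 107 on one and 607 on the other, whereas the brighter *Lcn4* probe set read 9.47 and 9.91; the part of such cells was not tested. Neighbours of *Lcn4* on GRCm38.p6 (chr2:26667674-26671282) include *Snhg7*, a small nucleolar RNA host gene 27.4 kb away, which fell by 0.93 in CD8 TEM cells (adjusted p = 0.0479), and *Dipk1b*, a kinase-like gene 31.2 kb away, which rose there by 2.62 ± 0.21 (SE; adjusted p = 3.55e-05).

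Over all 102 measured relatives and partners of the 7 genes, 21 were called higher and 6 lower in CD4 TEM cells, 24 and 13 in CD8 TEM cells, 23 and 7 in CD4 memory cells, 2 and 1 in CD4 TEM against CD4 memory cells, and 3 and 2 in CD4 TEM against CD8 TEM cells. Both directions together these were 26.5%, 36.3%, 29.4%, 2.94% and 4.9% of the 102, against 26.5%, 38.1%, 23.2%, 5.52% and 5.72% of all genes, so as a whole they were called about as often as other genes in CD4 TEM and CD8 TEM cells. In a test of the CD4 change minus the CD8 change itself, 11 were called above 0 and 7 below, where 8.03% and 4.49% of all genes were. The median change of the 102 was 0.03 in CD4 TEM and 0.06 in CD8 TEM cells.

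The genomic neighbours were as mixed. For each gene the 2 nearest measured genes on each side were taken, 28 in all: 7 were called higher and none lower in CD4 TEM cells, 8 and 3 in CD8 TEM cells, 4 and 1 in CD4 memory cells, 1 and none in CD4 TEM against CD4 memory cells, and none in CD4 TEM against CD8 TEM cells. Their shares of 25% in CD4 TEM and 39.3% in CD8 TEM cells lay near those of all genes, 26.5% and 38.1%, and are no result about the neighbours. Not all neighbours were close: *Agmo* and *Meox2*, taken for *Scin*, lay 2477.8 and 2880.2 kb away. The widest change was that of *Gzma*, granzyme A, a serine protease of killer cell granules, 108.7 kb from *Esm1* on GRCm38.p6 (chr13:113209659-113218104). *Gzma* averaged 12.39 ± 0.21 in CD4 TEM and 4.09 ± 0.14 in CD4 memory cells, against 5.64 ± 0.06 in naive CD4 cells, and 11.69 ± 0.06 in CD8 TEM cells, against 4.92 ± 2.42 in naive CD8 cells (SD, n = 2 each). It was thus bright in both TEM groups, where *Esm1* was bright in one. It rose by 6.75 ± 0.87 in CD4 TEM and 6.77 ± 0.87 in CD8 TEM cells (SE; limma adjusted p = 0.000748 and 0.00043) and was 8.30 ± 0.87 higher in CD4 TEM than in CD4 memory cells (adjusted p = 0.00163). *Gzmk*, granzyme K, lies nearer, 28.7 kb from *Esm1*, and rose by 1.18 ± 0.31 in CD8 TEM cells (adjusted p = 0.0174), with a change of -0.02 in CD4 TEM cells. Beside *Fgl2*, *Ccdc146*, whose span covers that of *Fgl2*, averaged 2.60 in CD4 TEM, 2.43 in CD4 memory, 2.93 in naive CD4, 3.53 in CD8 TEM and 2.54 in naive CD8 cells, and *Fam185a*, 46.5 kb away, rose by 2.16 and 2.20 in CD4 TEM and CD8 TEM cells (adjusted p = 0.00529 and 0.00293).

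**Figure D4:**
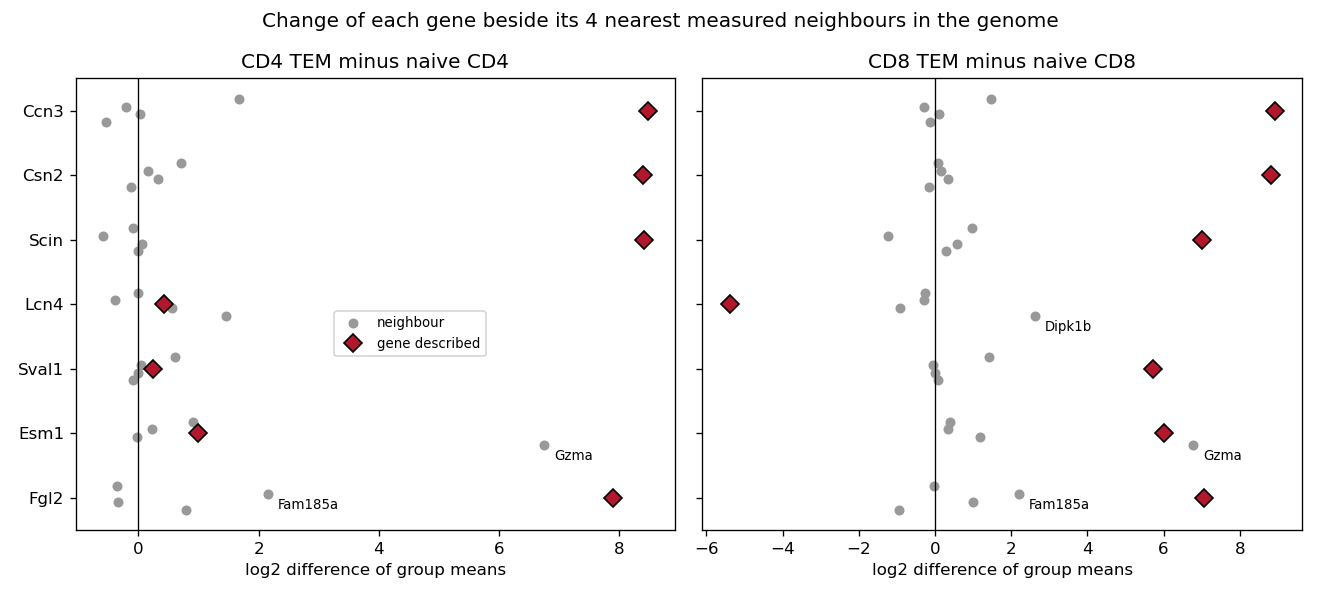
Log2 difference of group means (horizontal axis) of each gene (red diamond) and its 4 nearest measured neighbours in the genome (gray dots; those beyond 2 log2 units are named) in CD4 TEM minus naive CD4 cells (left) and CD8 TEM minus naive CD8 cells (right). Apart from *Gzma*, at 6.75 and 6.77, the neighbours lie within 3 log2 units of 0.

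The genes whose arrays ran most like each of the 7 were found by the root-mean-square difference of log2 values over the 10 arrays, after each gene's mean was subtracted, where 0 would be an identical course. *Fgl2* had the nearest match of all, *Pygl*, the liver glycogen phosphorylase, at 0.18, followed by *Dapk2*, a calmodulin-regulated kinase, at 0.38 and *Mreg*, melanoregulin, at 0.47. *Csn2* ran with the metallothionein gene *Mt1* at 0.39 and with *Gzmb*, granzyme B, at 0.51, and *Ccn3* with *Me1*, malic enzyme, at 0.51, *Mt2* at 0.55 and *Mt1* at 0.62. *Scin* was nearest to *Lgals3*, galectin 3, at 0.53, then *Enah* at 0.68 and *Dapk2* at 0.69. The metallothioneins bind zinc and copper ions, and galectin 3 is a β-galactoside-binding lectin.

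The CD8 TEM pattern had close matches too. *Esm1* was nearest to *Ido1*, the tryptophan-degrading enzyme, at 0.43, to *Foxf1*, a forkhead factor, at 0.44 and to *Msc*, musculin, at 0.67. *Sval1* was nearest to *Foxf1* at 0.56, *Calhm5* at 0.61 and *Ptprz1* at 0.71. *Ido1* averaged 9.67 in CD8 TEM cells, against 3.58 in naive CD8 cells, and 5.53 in CD4 TEM, 4.22 in CD4 memory and 3.68 in naive CD4 cells. The naive CD8 pattern of the *Lcn4* probe set was shared least closely, with *Slc6a19*, an amino acid transporter, at 0.70, and with the glutamate receptor gene *Gria3* and the pseudogene *Slc2a4rg-ps* at 0.72 each. Among the 7 themselves, *Sval1* and *Esm1* were 0.39 apart, *Ccn3* and *Csn2* 0.52, *Csn2* and *Fgl2* 0.70 and *Scin* and *Fgl2* 0.84, whereas *Lcn4* was at least 3.58 from every other.

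**Figure D5:**
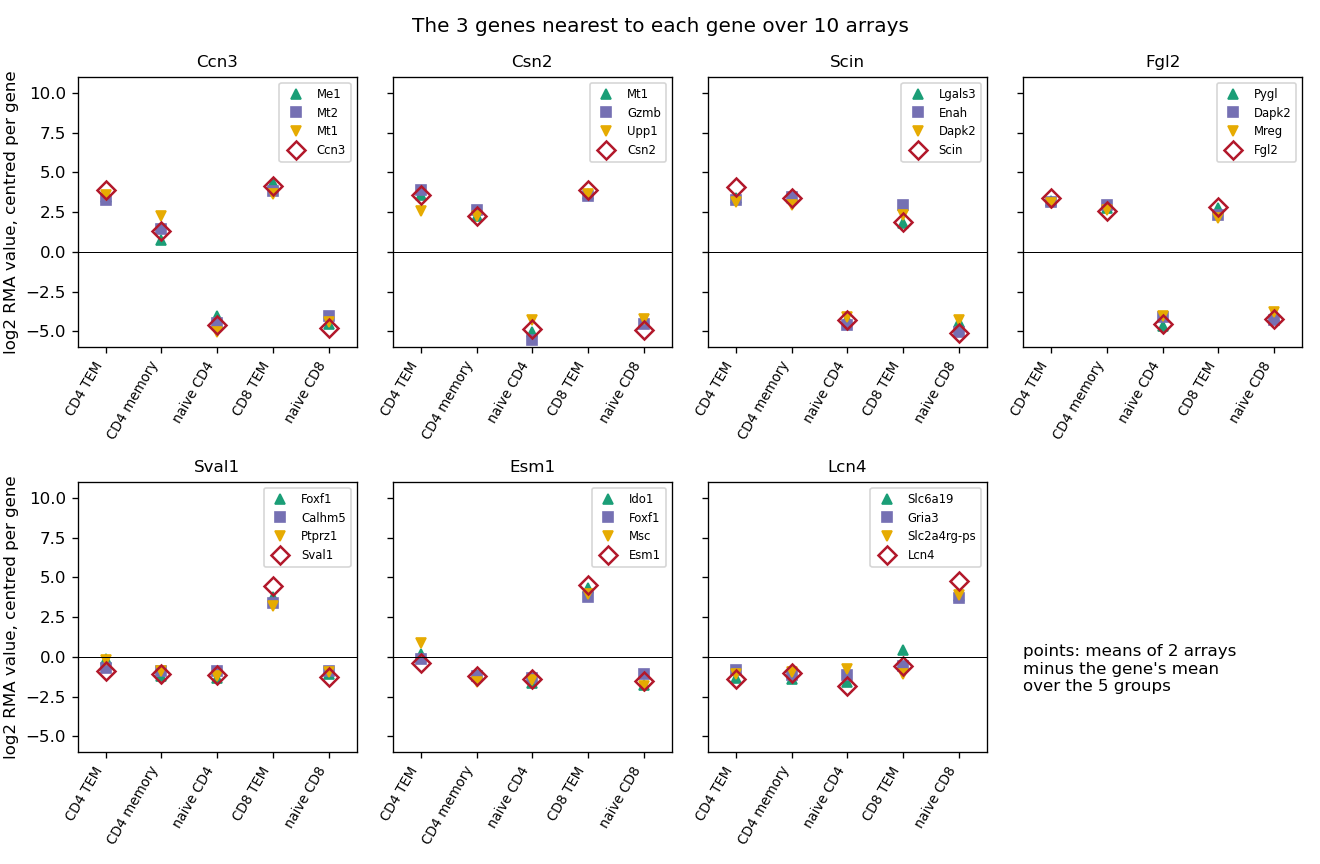
Group means of log2 RMA values minus each gene's mean over the 5 groups (vertical axis) by group (horizontal axis), for each of the 7 genes (open red diamonds) and its 3 nearest genes (filled symbols). The closest match is *Pygl* with *Fgl2*, at a root-mean-square difference of 0.18 log2 units over the 10 arrays.

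Seen across groups, the order of the means differed by gene. CD8 TEM cells led for *Ccn3*, *Csn2*, *Sval1* and *Esm1*, CD4 TEM cells for *Scin* and *Fgl2*, and naive CD8 cells for the *Lcn4* probe set. Between the 2 naive groups, 5 of the 7 genes overlapped, *Lcn4* was higher in naive CD8 cells, and *Scin* was lower there by a difference of -0.81 (2.84 and 2.97 in naive CD8 cells, against 4.13 and 3.30 in naive CD4 cells). Of all genes, 29% were apart and higher and 29.6% apart and lower in naive CD8 against naive CD4 cells. Arrays of CD4 memory cells were the least alike of any group, with 2903 named probe sets at least 2-fold apart, against 393 in CD8 TEM cells. *Ccn3* and *Csn2* shared this spread, with SDs of 0.65 and 0.64 in CD4 memory cells. The SDs there were smaller for *Scin* (0.15), *Fgl2* (0.12), *Esm1* (0.13), *Sval1* (0.18) and the *Lcn4* probe set (0.47).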

How the data were processed

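RNA of T cells was hybridized to 10 Affymetrix mouse arrays. The deposited log2 values, which the authors had made with RMA (BRB-ArrayTools, version not given in the sources used here), were used unchanged. Groups were taken from titles and source names; other label fields speak of B cells, *Foxo1* or a modified lymphoma line, do not match T cells and were set aside. RMA shrinks and compresses dim signals, so folds from dim values are approximate, and with 2 arrays a group the number of arrays limits the precision.

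Of 45101 rows, 64 controls were left out. Probe sets with 1 symbol in the platform annotation (34945) were kept, those with several (932) or none (9160) were not, and 34741 symbols were updated through Entrez identifiers (204 kept). For each of 18193 genes the probe set brightest on average stands for the gene. limma 3.58.1 (R 4.3.3) estimated 5 group means per gene from the 10 arrays (5 residual degrees of freedom) with moderated variances, p-values were adjusted by Benjamini-Hochberg across the genes, and the code was tested on simulated data. Errors are SD for levels and SE of the fit for differences. The members and lists were chosen with earlier results of these data known, as was the test of the CD4 change against the CD8 change. Named are all 7 members, the 3 genes most like each, the 2 nearest measured neighbours on each side, and up to 4 called genes per list, largest change first; other list genes are named where a count or a level of the list needs them. Same-numbered arrays did not deviate together (correlations of -0.04 to 0.03). Promoters and positions are from RefSeq, GRCm38.p6; the array table itself has no coordinates. Alternatives changed the probe set rule, filters, normalization, moderation, the arrays in the fit, and left out each array.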

Additional observations from a re-analysis of the deposited data

Results flagged for a closer look

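The change in CD4 cells (CD4 TEM minus naive CD4) was set against the change in CD8 cells (CD8 TEM minus naive CD8) by an interaction term in limma, over all 18193 genes. Of all genes, 8.03% were called with this difference above 0 and 4.49% below 0, and of the 102 relatives and partners 11 and 7 were. The sign says which signed change is higher, not which change is larger in size: for *Notch1*, *Svil*, *Socs3*, *Apom* and *Jak2* the CD8 change, a fall, was the larger one, and for *Prg4* the CD4 fall was. Both changes were measured on the same arrays as the levels above. With a difference above 0, named genes of the lists were *Il2rb* (2.76, adjusted p = 0.000575), *Socs3* (2.49, adjusted p = 0.00552), *Itga5* (2.1, adjusted p = 0.0133), *Apom* (1.98, adjusted p = 0.0124), *Svil* (1.86, adjusted p = 0.00466), *Icam1* (1.73, adjusted p = 0.00588), *Notch1* (1.66, adjusted p = 0.00275), *Jak3* (1.32, adjusted p = 0.0135) and *Jak2* (0.99, adjusted p = 0.012). With a difference below 0 they were *Il2ra* (-2.77, adjusted p = 0.00313), *Capg* (-1.6, adjusted p = 0.0273), *Csn3* (-1.42, adjusted p = 0.0158), *Itgb3* (-1.27, adjusted p = 0.0243), *Prg4* (-1.2, adjusted p = 0.0133) and *Gsn* (-1.02, adjusted p = 0.0262). For *Il2ra* and *Csn3* both changes were rises, the CD8 one the larger, and for *Il2rb*, *Jak3* and *Icam1* both were rises with the CD4 one the larger. Naive levels enter such a difference: *Icam1* averaged 8.48 in naive CD4 and 10.57 in naive CD8 cells, but 11.38 in CD4 TEM and 11.74 in CD8 TEM cells. Of the 15 genes, only *Csn3*, *Itgb3*, *Jak2* and *Socs3* were also called between the TEM groups, and each such call was lost under some alternative. Of these 15 differences, those of *Itga5*, *Apom*, *Jak3*, *Jak2*, *Capg*, *Csn3*, *Itgb3*, *Prg4* and *Gsn* lost their call when 1 array was left out, among them always a CD8 TEM array, with adjusted p up to 0.805 over all alternatives for *Itga5*, whose difference was as low as 0.28 with other probe sets. The call of *Svil* was lost with unmarked probe sets alone (adjusted p = 0.173).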

How the results depend on the processing

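The counts of called relatives and partners kept within 1.5 times their value under every alternative for CD4 TEM against naive CD4 (27, from 22 to 32), CD8 TEM against naive CD8 (37, from 29 to 40) and CD4 memory against naive CD4 cells (30, from 21 to 32). The 2 small counts did not. For CD4 TEM against CD4 memory cells, 3 were called, 1 with only the arrays of those groups in the fit, and from 1 to 4 when 1 array was left out; the count was 1 without CD4 TEM replicate 1 and without either CD8 TEM array. For CD4 TEM against CD8 TEM cells, 5 were called, 9 with trend and robust moderation, and from 1 to 7 when 1 array was left out; it was 2 without CD4 TEM replicate 2 or CD8 TEM replicate 1 and 1 without CD8 TEM replicate 2. The cause was not tested. With 1 array left out, its group has a single array that is assumed to vary like the others. With the replicate number as a block (replicate block) the 5 counts were 26, 37, 29, 2 and 4. Whether the numbers pair the samples is not given, nor whether CD4 TEM and CD4 memory cells came from the same cultures. Over all 18193 genes, calls in CD4 TEM against CD4 memory cells numbered 1005, and 490 or 542 without CD4 TEM replicate 1 or 2. In CD4 TEM against CD8 TEM cells they numbered 1041, and 464, 278, 251 or 219 without CD4 TEM replicate 1 or 2 or CD8 TEM replicate 1 or 2. In CD4 memory against naive CD4 cells they numbered 4227, and 2727 or 2575 without naive CD4 replicate 1 or 2, and in CD4 TEM against naive CD4 cells 4825, and 3185 without naive CD4 replicate 2. Calls of neighbours and markers were not recomputed. For the 7 genes, 22 of 300 recomputed differences moved by more than the spread of arrays and 6 changed sign, all of *Sval1* in CD4 cells, where groups lay within the spread: 0.25 in CD4 TEM against naive CD4 cells became -0.21 or -0.06 without CD4 TEM or naive CD4 replicate 1, 0.05 in CD4 memory against naive CD4 cells became -0.05 with median centring and -0.08 or -0.26 without CD4 memory or naive CD4 replicate 1, and 0.2 in CD4 TEM against CD4 memory cells became -0.26 without CD4 TEM replicate 1. For the other genes none changed sign, and averaging all probe sets moved *Lcn4* most, to -2.77 in CD8 TEM cells. All probe sets of *Ccn3*, *Csn2* and *Scin* carry a mark of the array's maker, so unmarked probe sets alone could not be tried for these genes. The differences rest on 2 arrays a group and on naive values near the dim end of the scale, which limits folds more than directions.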
